A study of Gallus gallus with 6 samples.

Results

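Developmental transcription factors are proteins that bind DNA and set which genes a cell type uses. They come in families that share a DNA-binding domain, such as the paired domain of PAX proteins, the homeodomain, the HMG box of SOX and TCF/LEF proteins and the forkhead domain of FOX proteins. Vertebrate lens formation depends on several of them, among them PAX6 in lens induction and MAF and PROX1 in the differentiation of fiber cells. Methylation of cytosines that precede a guanine (mCG) at such genes is part of how their use is fixed in a lineage. The genes described here are those with at least 1 region of changed mCG between lens epithelial and fiber cells whose symbol fits the names of these families. SOX1, SOX2, FOXP1, PBX3 and LHX9 fit the names too but were set aside by the selection. The rule uses the symbol and not the direction or size of a change, but it was set with earlier results of these data known. This left 73 genes of the 3888 genes with such a region in promoter or gene body, of which 2942 had a symbol.

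Whole genome bisulfite sequencing reads methylated cytosines apart from unmethylated ones. It was applied to White leghorn chick embryos at embryonic day 13, whose lenses were dissected into an epithelial part and a fiber part. The labels name no treatment or genetic change. Each replicate pooled material of 25 lenses, and there were 3 replicates of each cell type. The epithelial part held central and equatorial epithelium together and the fiber part held peripheral and central fibers, so differences within either part cannot be seen. The deposited values are levels of differentially methylated regions (DMRs), stretches of adjacent CG sites whose mCG level the authors found to differ. Each DMR has 1 mean mCG level for epithelial cells and 1 for fiber cells, pooled over the replicates. Values of single replicates and read depth were not analysed here, and no test over samples could be made. Expression was not analysed here either, so the cell types could not be checked against marker transcripts. A change is the fiber level minus the epithelial level in percentage points, and positive changes are called gains and negative ones losses. The authors' area statistic adds up the test statistics of the CG sites in a DMR. The authors smoothed levels over nearby CG sites before testing. The change divided by the mean statistic per site thus approximates the standard error of the smoothed level difference at 1 CG site. Over the DMRs of the 73 genes it ran from 0.939 to 4.91 percentage points, with a median of 3.48. It is given as "site SE" below and is not the error of a regional mean. DMRs were called by p-value, so a site SE that is small beside the change was set by the calling.

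The 73 genes held 210 distinct DMRs, with gains in 176 and losses in 34. Gains thus made up 83.8% of these DMRs, beside 86.6% of all 7621 DMRs of the table. The average change per gene was positive in 58 genes and negative in 15, a share of 79.5% beside 84.8% of all 3888 genes. The median of the gene averages was 17.0 percentage points, beside 18.7 over all genes, and single gene averages ran from -32.0 to 32.1. Changes of at least 20 percentage points in either direction were found in 113 of the 210 DMRs (53.8%), beside 59.5% of all DMRs. Shares and medians of the transcription factor genes therefore lay near those of the whole table, and no difference from it was tested.

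Of the 73 genes, 66 belong to 26 of the families and 7 only share a name with one. The latter are TCF20, a transcriptional coregulator, GATAD2A and GATAD2B, subunits of the NuRD chromatin complex, and RUNX1T1, a corepressor. They also include POU2AF1, a coactivator of POU proteins in B cells, FOXRED1, a mitochondrial protein, and SOX2OT_exon4, a non-coding transcript over SOX2. No HOX, LHX or ZEB gene was among the members, where LHX9 had been set aside by the selection. ZEB2, NFIA and NFIC have DMRs listed under older symbols, and so were not chosen. A single DMR was found in 33 genes, 2 or 3 DMRs in 24 genes and 4 or more in 16 genes. RXRA, MEIS1 and TCF3 were among the 4 genes with 10 or more DMRs, and these 4 held 53 of the 210 DMRs. Genes with 10 or more DMRs were 5.48% of the members, beside 1.52% of all genes with a DMR. Genes with a single DMR were 45.2% of the members, beside 63.7% of all genes with a DMR. The latter include genes without a symbol, which the selection could not choose.

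**Figure D1:**
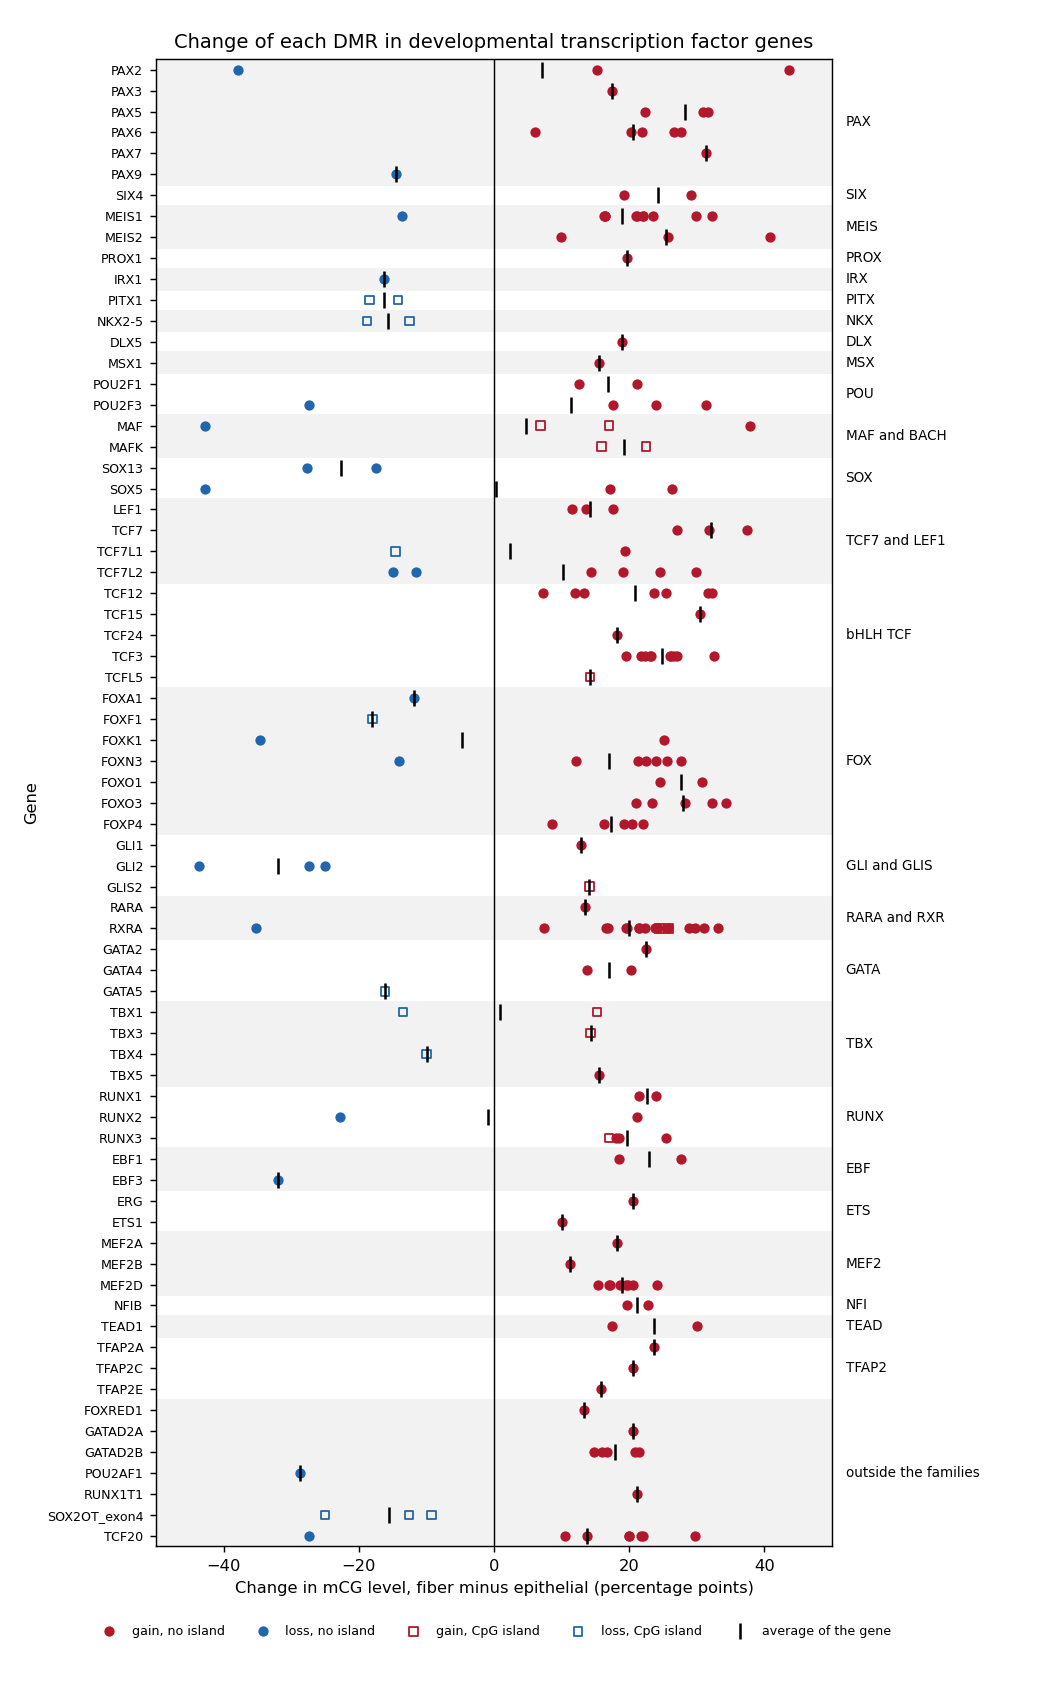
Change in mCG level (fiber minus epithelial, percentage points) of each of 195 DMRs of 71 genes, with 1 line per gene and genes grouped by family. Red points are gains and blue points losses, open squares overlap a CpG island, and the black bar is the average of the gene. Most lines lie wholly to the right of 0, 13 genes have points on the left alone and 13 have points on either side.

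PAX genes code for paired domain factors, and PAX6 is the factor on which eye formation rests from flies to vertebrates. PAX6 (ENSGALG00000012123) had 5 gains within 5.11 kb of chromosome 5, at galGal6 positions 5444092 to 5449205. The levels rose from 27.3% to 53.9% in an exon with the 3′ UTR, from 23.4% to 45.3% in an intron and from 32.2% to 59.8% in the longest region, which covers exon and intron sequence over 1464 bp. A further DMR over exon and intron rose from 7.40% to 27.6%. The DMR at the other end of the group was nearly unmethylated in both cell types, and rose from 2.05% to 8.10% (site SE 0.939). Epithelial levels of PAX6 thus ran from 2.05% to 32.2% within a few kb, and fiber levels were higher at every DMR listed. All 5 regions are also annotated to ELP4, a gene that overlaps PAX6 in this annotation, so they cannot be assigned to PAX6 alone.

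The other PAX genes went both ways. PAX5, a B cell factor, had 3 intronic gains on the Z chromosome, with gains of 30.9, 22.3 and 31.7 percentage points to fiber levels of 62.2%, 44.3% and 65.5%. PAX7 and PAX3, which act in neural crest and muscle precursors, had an intronic gain each, of 31.4 and 17.5 percentage points. PAX2, which acts in the optic stalk and the kidney, had changes in opposite directions that were large on either side. Its intronic DMR at 17963069 to 17963153 on chromosome 6 rose from 30.4% to 74.2% (site SE 3.40), the largest gain among the 210 DMRs. Another intronic DMR, at 17991552 to 17991726 and 28.4 kb away, fell from 67.7% to 29.9% (site SE 4.41). These intronic DMRs held 12 listed CG sites each. With a gain of 15.3 percentage points over exon and intron, the average of PAX2 was 7.07, a value that none of its DMRs had. Weighted by CG sites it was 10.8. PAX9, a factor of pharyngeal pouches and teeth, had an intronic loss from 35.8% to 21.3%.

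MEIS proteins are homeodomain factors of the TALE class, and MEIS1 and MEIS2 act upstream of Pax6 in the lens ectoderm of the mouse. MEIS1 (ENSGALG00000041626) had 10 gains and 1 loss over 87.8 kb of chromosome 3. The gains ran from 16.3 to 32.2 percentage points, with the highest in an intron that rose from 26.3% to 58.4%. The loss was the outermost DMR at 11088105 to 11088500, which fell from 28.1% to 14.5% (site SE 2.49), and the nearest gain began 1.21 kb further on. MEIS2 had 3 intronic gains from low levels, from 8.52% to 18.4%, from 10.0% to 35.7% and from 12.2% to 53.0%. Its largest gain of 40.9 percentage points rested on 10 listed CG sites, the fewest of any DMR of MEIS2.

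Among other homeodomain genes, losses and gains were divided by gene and not within genes, apart from POU2F3. PROX1, a homeodomain-related factor needed for fiber elongation in the mouse, had a single gain from 42.2% to 61.9% over an exon and intron. SIX4 had exonic gains of 19.3 and 29.1 percentage points, and single gains were listed for DLX5 in the promoter (19.0 percentage points) and MSX1 (15.5 percentage points). NKX2-5 (ENSGALG00000002886), a cardiac factor, had 2 promoter losses on chromosome 13, both overlapping CpG islands, from 31.4% to 18.9% and from 54.9% to 36.2%. PITX1 (ENSGALG00000030237), a factor of the hindlimb and pituitary, had 2 intronic losses in CpG islands on the same chromosome, from 39.0% to 24.8% and from 41.9% to 23.4%. IRX1 had a loss of 16.2 percentage points to a fiber level of 35.8%, in a region also annotated to an unnamed gene. POU2F1, an octamer-binding factor that acts on Pax6 in the mouse lens placode, had a promoter gain from 16.1% to 28.7% and a gain of 21.1 percentage points in an exon and intron. Its relative POU2F3 had 3 gains and a loss, with the smallest gain of 17.6 percentage points over exon, intron and 3′ UTR. The loss from 60.0% to 32.6% in an intron lay between a gain from 42.8% to 74.1% and a promoter gain from 34.7% to 58.6%.

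MAF proteins are basic leucine zipper factors, and large MAF proteins activate crystallin genes in the lens. MAF (ENSGALG00000026258) had large changes in opposite directions in neighbouring DMRs. On chromosome 11, an intronic DMR at 14581094 to 14581385 rose from 6.03% to 43.9% (site SE 3.40). The next, 87.0 kb further on at 14668406 to 14668679, fell from 71.2% to 28.4% (site SE 4.53) and held 11 listed CG sites. After another 16.0 kb a DMR in a CpG island rose from 7.05% to 24.1%, and the last, over exon, intron and 3′ UTR, rose from 3.30% to 10.2%. The average change of MAF was 4.74 percentage points with an SD over its DMRs of 34.2, so it describes none of them. Weighted by CG sites the average was 10.2. MAFK, a small MAF protein without an activation domain, had 2 gains in CpG islands, from 29.4% to 51.9% in an intron and from 18.4% to 34.3% in intron and promoter.

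Of 16 lens regulators listed among these families, 9 had a DMR. The deposited values cover only genes with a DMR, so no matching share over all genes can be set beside this count. These 9 genes, which include PAX6, PROX1, MAF, MEIS1, MEIS2, TFAP2A, RARA and POU2F1, had 27 gains and 2 losses among 29 DMRs, beside 86.6% gains in the whole table, and no difference from it was tested. MEIS1 held 11 of the 29 DMRs and PAX6 held 5, so the DMRs are not independent. Both losses were those of MAF and MEIS1. SOX1 and SOX2, which the selection set aside, are not in this count. The paper describes SOX2 as a factor of lens development with lower methylation in fiber cells. The DMR of SOX2OT_exon4 that is also annotated to SOX2 fell from 15.9% to 6.65%. The count therefore describes the listed regulators alone and not lens regulators in general. TFAP2A, an AP-2 factor needed in lens vesicle formation in the mouse, had an intronic gain from 27.1% to 50.7%. RARA, a receptor of retinoic acid, had a promoter gain from 22.4% to 35.9% over 65 bp. No DMR was listed under the symbols SIX3, MAFA, PITX3, FOXE3, GATA3, SOX11 and TBX2.

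RXRA (ENSGALG00000042055), the receptor that pairs with RARA and other nuclear receptors, had the most DMRs of all members. It had 17 gains and 1 loss within 71.4 kb of chromosome 17, all annotated to introns. The gains ran from 7.39 to 33.2 percentage points, with a median over all 18 DMRs of 23.0. The loss at 7605399 to 7605709 fell from 51.4% to 16.3% (site SE 4.04), which took the region with the highest epithelial level in the gene to a level under all but 1 of its fiber levels. A gain from 33.5% to 63.3% began 1.80 kb further on, and on the other side a gain from 26.0% to 51.9% ended 8.61 kb away.

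**Figure D2:**
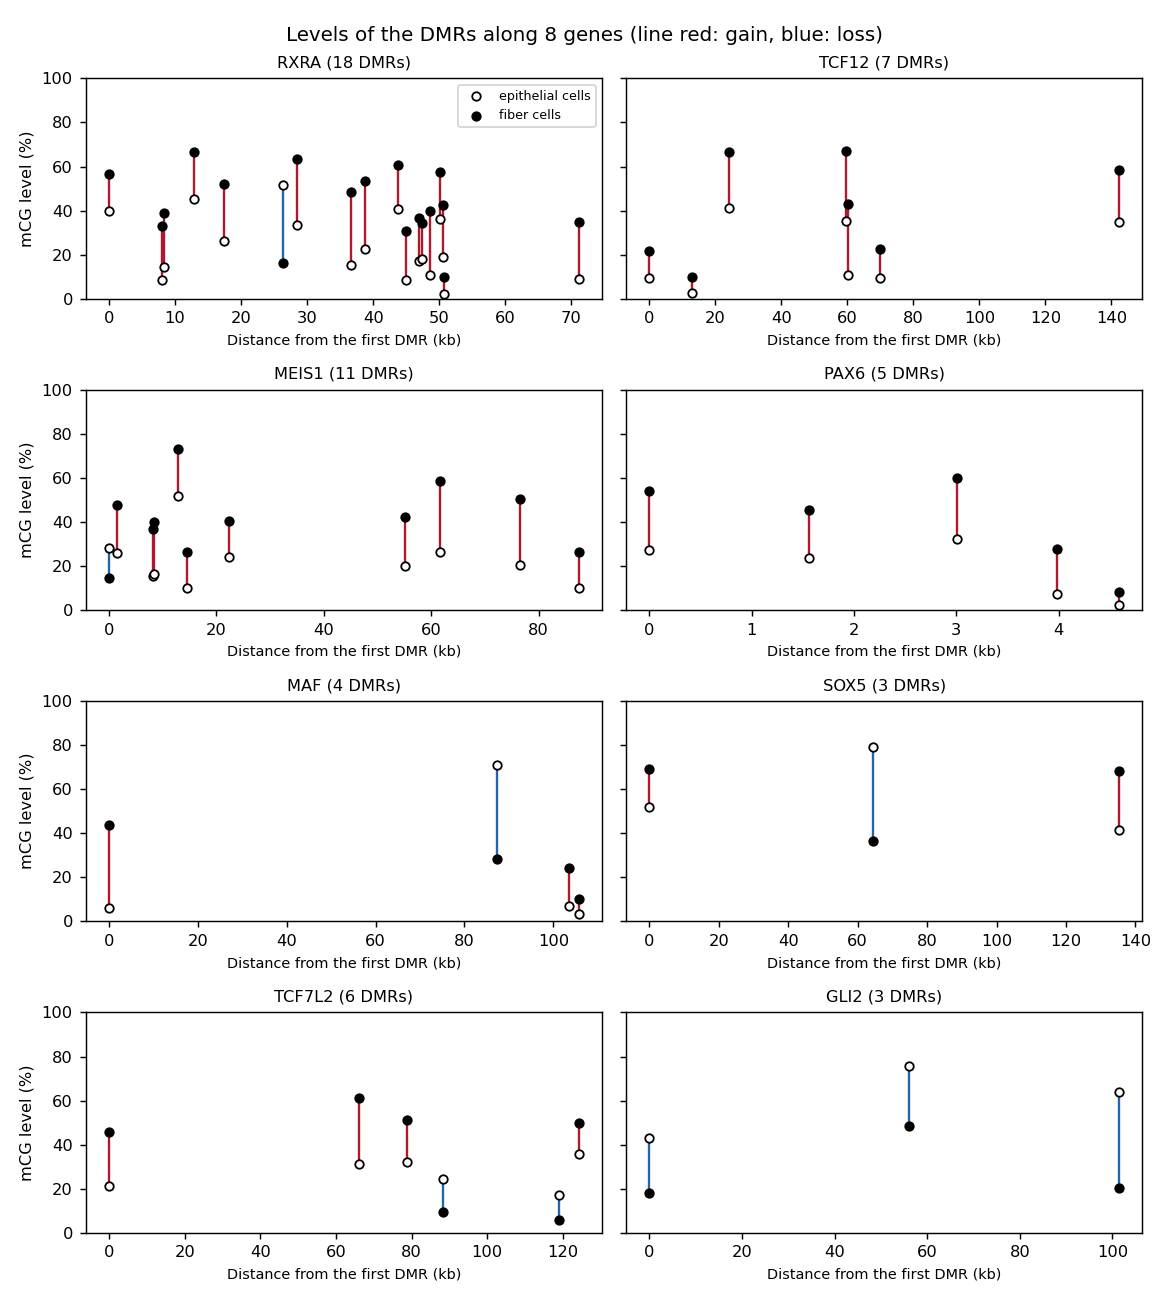
mCG level (%) of each DMR in epithelial cells (open circles) and fiber cells (filled circles) of RXRA, TCF12, MEIS1, PAX6, MAF, SOX5, TCF7L2 and GLI2, by distance in kb from the first DMR of the gene. Red lines join the levels of gains and blue lines those of losses. TCF12 and PAX6 show gains alone, GLI2 losses alone, and in RXRA 1 loss from 51.4% to 16.3% lies between gains.

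SOX proteins bind DNA through an HMG box, and SOX5 and SOX13 belong to the group called SoxD. SOX13 (ENSGALG00000000583) had losses alone on chromosome 26, from 27.6% to 10.1% in an intron and from 62.8% to 35.1% in a DMR over 5′ UTR, exon and intron. SOX5 had 3 intronic DMRs on chromosome 1, each more than 60 kb from the next. The outer ones were gains from 52.1% to 69.2% and from 41.7% to 68.1%. The middle one at 66080773 to 66080889 fell from 79.1% to 36.4% (site SE 4.47). It held 10 listed CG sites, beside a median of 25.0 over the 210 DMRs. The average of SOX5 was 0.241 percentage points, or 8.46 when weighted by CG sites. The 3 losses of SOX2OT_exon4 on chromosome 9 overlapped CpG islands, with 22.1%, 42.1% and 15.9% in epithelial and 9.53%, 17.1% and 6.65% in fiber cells, and the last of them is also annotated to SOX2.

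TCF7, TCF7L1, TCF7L2 and LEF1 code for HMG box factors that bind β-catenin at the end of the Wnt pathway, and they differed in pattern. TCF7 (ENSGALG00000006480) had the highest average change of the 73 genes, 32.1 percentage points. Its DMRs on chromosome 13 rose from 25.7% to 63.1% and from 24.5% to 56.3% in introns and from 28.4% to 55.4% in the promoter, the last in a region also annotated to an unnamed gene. LEF1 had 3 smaller gains of 11.5, 13.6 and 17.6 percentage points, at epithelial levels as far apart as 7.79% and 65.5%. TCF7L1 had a loss from 28.1% to 13.5% in a CpG island and, 4.58 kb away, a gain from 29.3% to 48.7%. TCF7L2 (ENSGALG00000008883) had 4 gains, of 14.3 to 29.9 percentage points, and 2 losses. The losses at 28140250 to 28140677 and 28170894 to 28171203 on chromosome 6 started low, and fell from 24.3% to 9.29% and from 17.3% to 5.62%. The first of them held 100 listed CG sites, the most of any DMR in these 4 genes.

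TCF3, TCF12, TCF15, TCF24 and TCFL5 code for basic helix-loop-helix factors, and their 20 DMRs were gains, where 86.6% of all DMRs were. TCF3 (ENSGALG00000001093) and TCF12, which code for E proteins that pair with tissue-specific factors of the same class, held 17 of them. TCF3 had 10 gains on chromosome 28 that were alike in size, from 19.5 to 32.6 percentage points with an SD of 3.67, and 2 of them overlapped its promoter. TCF12 had 7 gains over 143 kb of chromosome 10, from 7.26 to 32.2 percentage points. Its smallest gain started from 2.70%, and its promoter DMR rose from 34.8% to 58.4%. TCF15, a factor of somites, rose from 30.9% to 61.3% in the promoter, TCFL5 from 13.4% to 27.6% in the promoter and TCF24 from 67.8% to 86.1% in an intron.

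Forkhead genes had 19 gains and 4 losses in 7 genes. FOXO3 and FOXO1, effectors of insulin and PI3 kinase signalling, had gains alone. FOXO3 (ENSGALG00000015297) had 5 intronic gains on chromosome 3 with fiber levels between 34.6% and 55.3% and an average change of 27.9 percentage points. FOXO1 rose from 28.3% to 59.0% in the promoter and from 53.4% to 78.1% in an intron. FOXN3, a repressor, had 6 gains of 12.2 to 27.6 percentage points and an intronic loss of -14.0 percentage points to a fiber level of 10.1% (site SE 2.50). That loss lay 0.882 kb from a gain from 28.4% to 56.0%, the closest pair of opposite DMRs in the 73 genes. FOXP4 had 5 gains, the smallest over intron and promoter from 4.60% to 13.2%. FOXK1 had an intronic loss from 57.8% to 23.3% and, 26.7 kb away, a gain from 44.8% to 69.9%. FOXA1, a factor of the endoderm, fell from 35.5% to 23.7% and FOXF1, a factor of the mesoderm around lung and gut, from 61.8% to 43.9% in a CpG island.

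GLI proteins are the transcription factors of the Hedgehog pathway. GLI2 (ENSGALG00000011630) and GLI1 went opposite ways. GLI2 had 3 intronic losses over 102 kb of chromosome 7, from 43.0% to 18.0%, from 75.7% to 48.3% and from 63.8% to 20.1%. The last of these, at 25886263 to 25886429, was the largest loss among the 210 DMRs (site SE 4.16). The average of GLI2, -32.0 percentage points, was the lowest together with that of EBF3. GLI1 had an exonic gain from 74.6% to 87.5%, and GLIS2, a related zinc finger factor, a gain from 35.3% to 49.4% over exon and 3′ UTR in a CpG island.

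In the remaining families, gains were more frequent, but paralogs differed in sign. EBF1, a B cell factor, had intronic gains of 18.5 and 27.6 percentage points, while EBF3 (ENSGALG00000010461) fell from 74.8% to 42.8% in an intron (site SE 3.83). GATA2 and GATA4 had 3 intronic gains of 13.7 to 22.5 percentage points, while GATA5 fell from 45.8% to 29.6% in a CpG island over 609 bp. RUNX1 had 2 gains and RUNX3 4 gains, from 17.0 to 25.4 percentage points. RUNX2, the factor of bone formation, had an intronic loss from 76.6% to 53.8% and a gain from 17.2% to 38.3%, with an average of -0.824. Among T-box genes, TBX3 and TBX5 had gains of 14.3 and 15.5 percentage points. TBX4, a hindlimb factor, had a promoter loss from 29.0% to 19.0%, in a region also annotated to an unnamed gene. TBX1 had a loss from 48.1% to 34.6% and a gain from 25.5% to 40.7%, both in CpG islands.

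The listed members of the MEF2, TEAD, TFAP2 and ETS families had gains alone, as did NFIB, where 86.6% of all DMRs were gains. NFIB was the only NFI gene listed under its family symbol. NFIA and NFIC, listed under older symbols, are not counted here, and NFIA had losses as well. MEF2 genes, named for their role in muscle, had 10 gains, of which 8 were in MEF2D with changes of 15.4 to 24.1 percentage points and an SD of 2.69. Of these, 2 lay in the promoter of MEF2D and rose from 66.1% to 81.6% and from 40.7% to 57.8%, the latter in a region also annotated to an unnamed gene. MEF2A and MEF2B rose by 18.2 and 11.2 percentage points. NFIB rose from 9.10% to 31.9% in an intron and from 8.62% to 28.3% in the promoter. TEAD1, a DNA-binding partner in the Hippo pathway, rose from 29.5% to 59.4% in the promoter and from 10.4% to 27.8% in an intron. TFAP2C and TFAP2E had single gains of 20.5 and 15.9 percentage points. The ETS genes ERG and ETS1 gained 20.5 and 10.1 percentage points, the latter from 3.10%.

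The genes outside the families were mixed as well. TCF20 had 7 gains of 10.5 to 29.8 percentage points and an intronic loss from 64.8% to 37.6%. GATAD2B had 5 gains of 14.8 to 21.4 percentage points, and GATAD2A, RUNX1T1 and FOXRED1 had single gains of 20.6, 21.2 and 13.3 percentage points, that of FOXRED1 also annotated to EI24 and SRPRA. POU2AF1 had a promoter loss from 48.7% to 20.0%.

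Losses had higher epithelial levels than gains, and a lower median size than losses over the whole table. The 34 losses had a median size of 18.2 percentage points, beside 27.9 for all 1019 losses. The gains had a median of 20.9, beside 21.4. Of the 34 losses, 35.3% overlapped a CpG island, beside 10.5% of all losses, and island losses were smaller in either set. Outside islands the median size of losses was 27.3, beside 29.7 for all such losses. Inside islands it was 14.4, close to that of all island losses. Both of these medians lay under those of the whole table. Whether the larger share of island losses accounts for the lower median of all 34 losses was not tested. Median epithelial levels were 25.6% in gains and 46.9% in losses, beside 27.6% and 54.3% over the table. All 26 DMRs with an epithelial level under 10% were gains, beside 884 of 886 in the table, where so low a level leaves little room to fall. Of the 37 DMRs with 50% or more in epithelial cells, 15 were losses (40.5%), beside 32.5% of the 1848 such DMRs of the table.

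**Figure D3:**
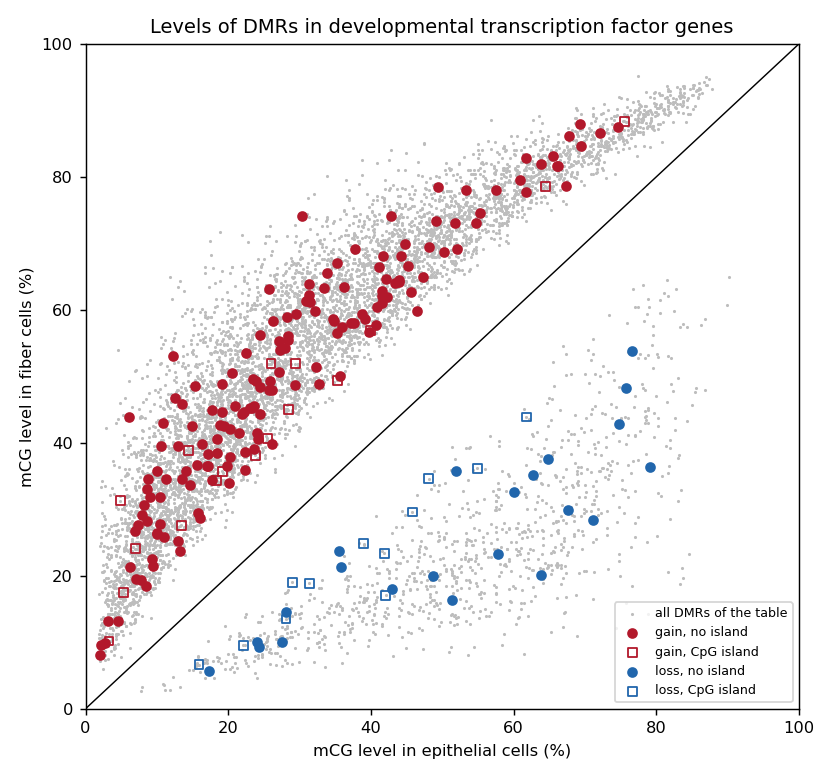
mCG level in epithelial cells (%, horizontal axis) against the level in fiber cells (%, vertical axis) of all 7621 DMRs (grey) and of the 210 DMRs of transcription factor genes (red gains, blue losses, open squares in CpG islands). Points above the diagonal are gains. The 12 losses in CpG islands lie nearer to the diagonal than most grey losses, with a median size of 14.4 percentage points.

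CpG islands, where CG dinucleotides are dense, were overlapped by 29 of the 210 DMRs (13.8%), but unevenly by direction. The share was 12.7% over all DMRs and 10.3% over the 6711 DMRs at genes that are not members. Of the 34 losses, 12 overlapped an island (35.3%), beside 10.5% of all losses and 4.70% of the 873 losses at genes that are not members. Of the 176 gains, 17 did so (9.66%), beside 13.1% of all gains and 11.1% of the 5838 gains at genes that are not members. Of DMRs in islands, 58.6% were gains in these genes, beside 89.0% in the table. Island losses came from 8 genes, FOXF1, GATA5, NKX2-5, PITX1, TBX1, TBX4, TCF7L1 and SOX2OT_exon4. Without the genes outside the families, 9 of 29 losses (31.0%) overlapped an island. The 12 island losses ran from -9.22 to -25.0 percentage points, and the 22 other losses from -11.6 to -43.6, so the sizes overlapped. NKX2-5, PITX1 and SOX2OT_exon4 each contributed neighbouring DMRs, so the 12 are not independent, and the counts are given as a description without a test.

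**Figure D4:**
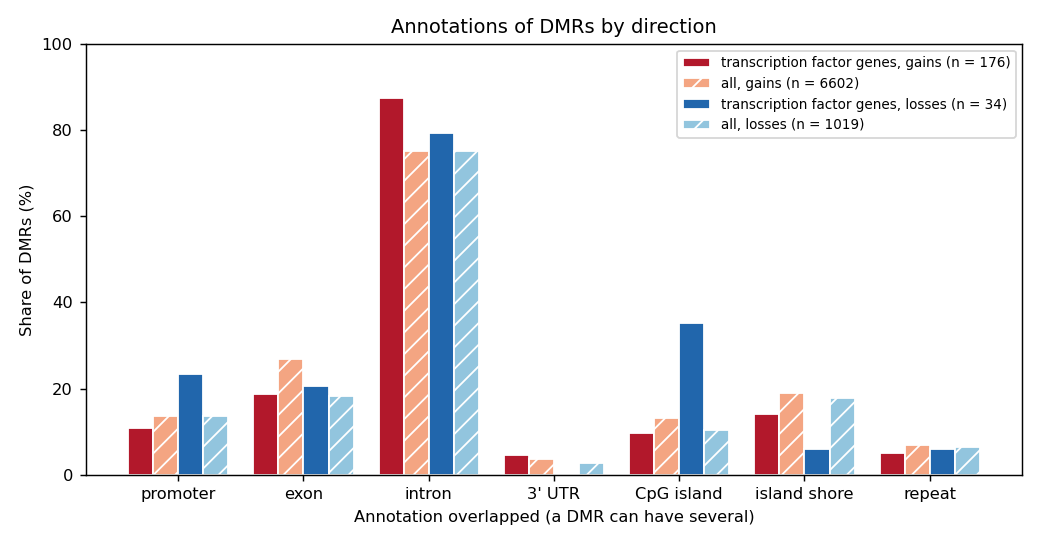
Share of DMRs (%) that overlap each annotation of any gene, for gains and losses of the transcription factor genes (solid bars) and of the whole table (hatched bars). A DMR can have several annotations. In CpG islands the bar of losses in transcription factor genes stands at 35.3%, beside 10.5% for all losses.

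Promoters, the sequence upstream of transcription start sites, held 25 DMRs of 20 genes, counting for each gene its own promoter. There were 18 gains and 7 losses, a share of gains of 72.0%. Counting DMRs in the promoter of any gene, 19 of 27 were gains (70.4%), beside 86.6% of the 1041 such DMRs of the table. Promoter gains were found in 16 genes, and 5 of the 18 overlapped an island or its shore. The 7 losses belonged to 4 genes, with 3 in SOX2OT_exon4, 2 in NKX2-5 and 1 each in TBX4 and POU2AF1, and 6 of them overlapped an island. SOX2OT_exon4 is a non-coding entry named for an exon, so the sequence upstream of it may not be a promoter. Within the families alone, 18 of 21 promoter DMRs were gains (85.7%). Introns were overlapped by 86.2% of the DMRs, beside 82.7% of the 6711 DMRs at genes that are not members, and exons by 19.0%, beside 28.6%. All 8 DMRs in 3′ UTRs were gains, beside 89.8% of such DMRs in the table.

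Of the 40 genes with 2 or more DMRs, 22 had gains alone, 5 had losses alone and 13 had both (32.5%), beside 22.5% of all 1410 such genes. A gene with more DMRs has more chances to hold both directions. The members had 2.88 DMRs per gene on average, beside 1.94 over all genes with a DMR. The shares of genes with both directions were not compared at equal numbers of DMRs, and their difference was not tested. In 12 of the 13 a single loss stood among gains or beside 1 gain, and TCF7L2 had 2 losses. These genes held 14 of the 34 losses, and the other 20 lay in the 13 genes with losses alone. Neighbouring DMRs within a gene had the same direction in 117 of 137 pairs (85.4%), beside 86.8% of 3664 pairs over all genes. At distances under 1 kb the same direction was found in 27 of 28 pairs (96.4%), beside 96.6% of 861, and FOXN3 held the exception. Levels were smoothed over nearby sites before calling, so the closest pairs may share smoothed sites and are not independent. Opposite pairs had a median gap of 8.90 kb and pairs of 1 direction 4.72 kb. In RXRA, MAF, SOX5, POU2F3, FOXN3 and TCF20 the same loss formed 2 opposite pairs, so these pairs are not independent. The gaps were not set beside those of all genes, and their difference was not tested.

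In 3 cases the DMRs of different members followed each other on a chromosome with no other DMR between. The losses of PAX9 and FOXA1 on chromosome 5 were 449 kb apart, with changes of -14.5 and -11.8 percentage points. The gains of TBX3 and TBX5 on chromosome 15 were 137 kb apart. Gains of RUNX1 and ERG on chromosome 1 were 1580 kb apart.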

How the data were processed

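The values come from whole genome bisulfite sequencing of 3 epithelial and 3 fiber replicates, grouped by the labels. The authors called bases with CASAVA, trimmed reads with Trimmomatic, aligned them to galGal6 with Bismark and called DMRs with DSS, a smoothed beta-binomial test per CG site (versions not given in the sources used here). The authors deposited levels as a fraction, pooled over replicates, and the area statistic, a score, beside CG numbers, lengths and annotations. Their column of differences was not used. Smoothing makes nearby sites alike, and calling by p-value favours regions with many reads. Depth is unknown from the deposited table, so no interval was computed for a level.

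From 13180 lines, 551 repeats were removed and lines joined to 7621 DMRs. Fractions were multiplied into percent. Gene averages are unweighted over distinct DMRs in promoter, UTRs, exons and introns. Members and lists were chosen with earlier results of these data known. Chosen for full description were genes on a lens regulator list, with 4 or more DMRs or among the 5 highest or 5 lowest averages. Those with a loss in promoter or 5′ UTR or with changes of both directions were also chosen, and others are given by family. For several chosen genes, such as RUNX3, GATAD2B, FOXP4 and TCF20, only counts, ranges or single DMRs are printed. SOX2OT_exon4 was put outside the families after the table was seen. Values of 2 members are not reported here, though counts over all members include them. No test was made. Gene averages, removal of repeats, joining of lines to DMRs, island labels, genes per DMR and choice by symbol were tested on simulated data. The other calculations were not. All used Python 3.11.15, NumPy 2.4.6, pandas 2.3.3, SciPy 1.17.1 and matplotlib 3.10.9.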

Additional observations from a re-analysis of the deposited data

How the results depend on the processing

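A minimum change of 20 percentage points raised the median change of the DMRs from 19.6 to 23.6, since smaller changes were removed. The median gene average rose from 17.0 to 22.5. Of the 25 genes that still had 2 or more DMRs, 8 had changes of both directions, beside 13 of 40 without the minimum. Keeping the DMRs whose area statistic reached the median of the table left 6 genes with both directions, of 26 with 2 or more DMRs. Under the minimum change the averages of MAF (-2.48 percentage points from 2 DMRs) and SOX5 (-8.17 from 2 DMRs) turned negative, since their smaller gains dropped out. Weighting by CG sites moved the averages of 8 of the 40 genes chosen for full description by more than the median site SE of 3.48 percentage points, with MAF at 10.2, SOX5 at 8.46, PAX2 at 10.8, POU2F3 at 17.7, TBX1 at 5.20, MEIS1 at 14.6, MEIS2 at 18.4 and TCF7L2 at 4.03. The share of gains ran from 79.6% without the 4 genes with 10 or more DMRs to 86.7% under the minimum change, and the share of genes with a positive average from 75.6% with SOX1, SOX2, FOXP1, PBX3 and LHX9 included to 81.2% without DMRs annotated to several genes. Most of these alternatives are subsets of the same DMRs, and a minimum of 10 CG sites removed none, so these ranges say little about stability. The alternatives with these 5 genes and without the 4 genes were chosen after seeing the data. Leaving out replicates was not possible with pooled levels. No paired analysis was possible because the levels are pooled over replicates.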
